A study of Mus musculus with 2 samples.

Results

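The contactin family was examined across the cell types of the neonatal mouse cerebellum. Its members were taken by symbol from the gene list of the count files, Cntn1 to Cntn6, which gave 6 of the 32285 genes listed. Nuclei were isolated from cerebella at postnatal day 1 (P1) and counted by single-nucleus RNA-seq (snRNA-seq), which captures polyadenylated RNA of single nuclei in droplets and counts molecules by unique molecular identifiers (UMIs). There were 2 libraries, and each was made from 12 cerebella pooled before nuclei were isolated, so no animal can be told from another. The control library came from littermates without Cre, whose genotype is labelled Tox3f/f although the name of the library reads Tox3f/f_or_Tox3f/+. The second library, labelled cKO, came from Nestin-cre;Tox3f/f mice, which carry floxed Tox3 alleles and a Cre driven by Nestin, a gene of neural progenitor cells. The comparison asks how the cerebellum differs when Tox3, a transcription regulator of the HMG-box family, is deleted. The study describes this mutant as lacking Tox3 in all neural cell types. With 1 library per group there is no replicate check, no test was made and no p-value is given. Every interval printed is an exact 95% interval that covers counting error only.

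Contactins are neuronal cell adhesion molecules of the immunoglobulin superfamily. Each has immunoglobulin-like and fibronectin type III domains outside the cell and is held in the membrane by a glycosylphosphatidylinositol anchor, so signals pass through partners such as the Caspr proteins, the L1 family and receptor tyrosine phosphatases. In the cerebellum they are known for axon growth, fasciculation and synapse formation. Cntn2 (TAG-1) is a classic marker of granule neurons that have just left the cell cycle and extend parallel fibres, Cntn1 (F3) is a component of the axonal membrane beside the nodes of Ranvier, and Cntn6 (NB-3) and Cntn5 (NB-2) are known for roles in synapse formation and in the auditory pathway.

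The 6 genes are long and spread over several chromosomes (GRCm38 coordinates from GENCODE). Cntn1 (ENSMUSG00000055022) lies at chr15:92051165-92341967 on the plus strand. Cntn2 (ENSMUSG00000053024) lies at chr1:132509427-132543256 on the minus strand. Cntn3 (ENSMUSG00000030075) lies at chr6:102162655-102573101 on the minus strand. Cntn4 (ENSMUSG00000064293) lies at chr6:105677660-106699310 on the plus strand. Cntn5 (ENSMUSG00000039488) lies at chr9:9660891-10904775 on the minus strand. Cntn6 (ENSMUSG00000030092) lies at chr6:104492790-104863406 on the plus strand. Gene length ran from 33.8 kb for Cntn2 to 1244 kb for Cntn5. Cntn3, Cntn4 and Cntn6 all lie on chromosome 6. Another counted gene overlaps Cntn3 (4930587E11Rik) and Cntn5 (Gm32710), on the opposite strand in both cases, and the 3′ kit marks strand.

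The kept data were 4667 control nuclei and 6555 nuclei of the cKO-labelled library, with 20546345 and 30147400 UMIs. Median depth before filtering was 4072 and 4161.5 UMIs per nucleus, and 9 barcodes occurred in both libraries. Levels are given as CPM, the UMIs of a gene scaled to 1000000 UMIs of its class or library. Tox3 UMIs were not fewer under the cKO label, with 104 and 119 CPM, a ratio of 1.14 (1.08 to 1.20). In GNP-like nuclei they stood at 251 and 560.4 CPM, a ratio of 2.23 (1.90 to 2.60). Counts at the 3′ end need not reflect a deletion elsewhere in the gene, so this value does not check the label. Nuclei with an Xist UMI numbered 2195 and 4148, against 1412 and 1459 with Y-linked but not Xist UMIs, so the sexes were not balanced alike in the pools. Clusters 1 and 4 held low-depth nuclei almost entirely of 1 library each (975 and 36 nuclei, 41 and 665 nuclei) and stayed unnamed. Classes described were granule neuron progenitors (GNP), granule neurons (GN), Purkinje cells, GABAergic interneurons, GABAergic progenitors, glutamatergic cerebellar nuclei neurons (CN), Bergmann glia, parenchymal astrocytes, the oligodendrocyte lineage and microglia, which made 10 classes with at least 20 nuclei in both libraries. Each name was rebuilt from marker genes and carries the ending "-like". The GN name depended on the setting. At a lower resolution, a cluster of 330 control and 396 other nuclei that scored best for GN markers stayed unnamed. Without doublet removal the same held for clusters of 540 and 782 nuclei and of 291 and 400 nuclei. GNP-like nuclei made up 11.0% of kept control nuclei (515) and 1.74% in the cKO-labelled library (114). Contactins and their partner genes were kept out of the clustering features.

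Sequence before a listed start is shown first for 3 members with different courses along the granule lineage. The study concerns a partner of Atoh1, a factor that binds E-boxes. RefSeq windows of 250 bases before the first listed start of Cntn2 (chr1:132542941-132543190, minus strand), Cntn5 (chr9:10904776-10905025, minus strand) and Cntn6 (chr6:104492794-104493043, plus strand), on GRCm38.p6, are printed 5′ to 3′ with every E-box (CANNTG, which reads the same on both strands) in capitals:
Cntn2: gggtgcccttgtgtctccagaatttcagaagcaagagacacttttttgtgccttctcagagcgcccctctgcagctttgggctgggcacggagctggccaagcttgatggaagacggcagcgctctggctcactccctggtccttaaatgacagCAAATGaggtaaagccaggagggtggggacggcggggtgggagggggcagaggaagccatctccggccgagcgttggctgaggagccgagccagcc
Cntn5: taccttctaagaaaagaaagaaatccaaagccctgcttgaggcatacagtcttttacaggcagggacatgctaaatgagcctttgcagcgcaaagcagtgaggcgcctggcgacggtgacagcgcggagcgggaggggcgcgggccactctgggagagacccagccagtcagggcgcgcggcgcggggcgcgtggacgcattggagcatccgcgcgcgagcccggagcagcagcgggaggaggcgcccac
Cntn6: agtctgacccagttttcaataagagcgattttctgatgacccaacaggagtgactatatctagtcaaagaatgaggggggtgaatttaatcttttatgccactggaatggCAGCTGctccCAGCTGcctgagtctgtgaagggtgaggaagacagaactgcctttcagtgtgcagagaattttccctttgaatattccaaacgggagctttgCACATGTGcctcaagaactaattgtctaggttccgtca
The Cntn2 window held 1 E-box and the Cntn6 window held 4, of which 2 were CAGCTG and 2 overlap each other. The first listed Cntn5 window held none, but a second listed start held 3. The windows of Cntn1, Cntn3 and Cntn4 held 0, 1 and 4. The first listed windows of Cntn1 and Cntn5 end at the GENCODE bounds given above. Those of Cntn2, Cntn3, Cntn4 and Cntn6 lie inside the bounds, downstream of the outermost start, so they need not be promoters. Over 27025 RefSeq windows of the same length, 66.0% held at least 1 E-box, 3.86% at least 4, and 12.8% a CAGCTG. A match describes letters and not a bound site, and a window without one says only that these letters are not in it.

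Over all kept nuclei, Cntn5 stood at 1007 CPM (95% interval 994 to 1021) in control and 1399 CPM (1386 to 1412) in the cKO-labelled library, a ratio of 1.39 (1.37 to 1.41). Cntn4 moved in the same direction, from 366 to 488 CPM, with a ratio of 1.33 (1.30 to 1.37). Cntn2 stood lower, at 65.2 and 48.1 CPM, with a ratio of 0.737 (0.684 to 0.794), and so did Cntn1, at 647 and 563 CPM, with a ratio of 0.870 (0.850 to 0.890). Cntn3 (ratio 0.949, 0.900 to 1.00) and Cntn6 (ratio 1.04, 1.00 to 1.08) lay close to 1. No member passed a 1.5-fold difference over all nuclei, where 11.0% of the 17600 genes with at least 50 UMIs did. Where intronic reads are counted, long genes can give more UMIs in nuclei, so members were also set against each other per length. Whether they were counted here is not given, and 3′ counts need not scale with gene length. In CPM per 100 kb of gene, Cntn1 led in control with 222, followed by Cntn2 with 193, Cntn5 with 81.0, Cntn6 with 51.4, Cntn4 with 35.8 and Cntn3 with 27.8.

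In bulk values, fewer nuclei of a type and less RNA per nucleus cannot be told apart, so the whole-library ratios were split by cluster. With each of the 26 clusters held at its control level and only the makeup taken from the cKO-labelled library, the ratio was 1.34 for Cntn4 and 1.35 for Cntn5, close to those observed. With the control makeup and the levels of the cKO-labelled library it was 1.02 and 1.08. The higher whole-library values of Cntn4 and Cntn5 thus went with the makeup of the cKO-labelled library. In it Purkinje cell-like nuclei gave 19.9% of UMIs against 14.8% in control. GABAergic interneuron-like nuclei gave 19.2% against 14.0%, CN-like nuclei 9.66% against 5.02%, and the granule lineage 28.7% against 46.5%. For Cntn1 the 2 standardised ratios were 0.980 and 0.872, so its lower value sat in the levels. Cntn2 and Cntn3 had opposite directions under the standardisations: 0.783 from makeup and 1.16 from levels for Cntn2, and 1.19 and 0.789 for Cntn3.

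Each member had its own pattern over the cell types. Microglia-like nuclei, which should lack contactins, serve as the background of free RNA: their 6 values lay between 0 and 57.9 CPM in control and between 9.19 and 57.5 CPM in the cKO-labelled library. Cntn3 had 0 UMIs in the 53 control microglia-like nuclei, an upper interval limit of 21.4 CPM.

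Cntn1, known as a ligand of Notch and a partner of Ptprz1, was highest in oligodendrocyte lineage-like nuclei, at 1604 CPM (95% interval 1475 to 1742) in control and 1411 CPM (1339 to 1486) in the cKO-labelled library. GN-like nuclei followed with 1044 and 882 CPM, and these classes did not overlap within a library. Below them, CN-like (622 and 569 CPM) and Bergmann glia-like nuclei (509.7 and 580.2 CPM) came next. Their order is not resolved in the cKO-labelled library, where the intervals of CN-like (542 to 597 CPM) and Bergmann glia-like nuclei (548 to 613 CPM) overlapped. GNP-like nuclei held only 191 and 135 CPM. Cntn1 was thus present in neurons and macroglia alike, and of its control UMIs 58.8% came from GN-like nuclei.

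Among the classes described Cntn2 was highest in control in GN-like nuclei, at 111 CPM (95% interval 104 to 119), and CN-like (59.2 CPM) and GNP-like nuclei (48.1 CPM) came next. The microglia-like interval in control, 6.31 to 59.3 CPM on 4 UMIs, overlapped that of CN-like nuclei and held the whole interval of GNP-like nuclei (39.1 to 58.6 CPM). Neither is thus told from the microglia-like background there. In the cKO-labelled library, GNP-like nuclei were first, at 171 CPM (134 to 215), ahead of GN-like nuclei (97.7 CPM). The other classes lay between 5.75 and 30.6 CPM in control, a range that includes the microglia-like value of 23.2 CPM. Their control intervals lay below that of GNP-like nuclei, except in microglia-like and GABAergic progenitor-like nuclei, on 4 and 1 UMIs.

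Among the classes described, Cntn3 was highest in CN-like nuclei, at 345 CPM (95% interval 310.3 to 383) in control and 259.5 CPM (241 to 279) in the cKO-labelled library. GABAergic interneuron-like nuclei held 132 and 126 CPM, and the interval of the 20 control GABAergic progenitor-like nuclei overlapped that of CN-like nuclei. GN-like nuclei held 50.3 and 58.8 CPM. Within the Purkinje cell-like class it depended on the cluster: cluster 6, led by Car8 and Cntn5, held 229 and 142 CPM, whereas cluster 9, which has Ebf2 among its leading genes, held 21.0 and 21.5 CPM.

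Cntn4, Cntn5 and Cntn6 were highest in projection neurons among the classes described. Cntn4 was highest in CN-like nuclei (1038 CPM, 95% interval 976 to 1102 in control, 918 CPM, 883 to 953 in the cKO-labelled library), followed by GABAergic interneuron-like (762 and 727 CPM) and Purkinje cell-like nuclei (757 and 766 CPM), whose intervals overlapped in both libraries. It also reached 377 and 350.5 CPM in oligodendrocyte lineage-like nuclei. Cntn5 was highest in CN-like nuclei in control (3650.4 CPM, 95% interval 3535 to 3769) and in Purkinje cell-like nuclei in the cKO-labelled library (4087 CPM, 4036 to 4138). A few CN-like nuclei weighed on the control order, which the interval does not cover. In control the top 5% of nuclei held 39.9% of Cntn5 UMIs in the CN-like class and 15.7% in the Purkinje cell-like class. The median control nucleus held 19.5 Cntn5 UMIs in the first class and 28 in the second. At least 1 Cntn5 UMI was found in 99.3% and 99.3% of Purkinje cell-like nuclei (median depth 9299 and 7956 UMIs), against 11.3% and 12.5% of microglia-like nuclei at 2923 and 2541 UMIs. With every nucleus thinned to 1000 UMIs Cntn5 was seen in 90.3% and 91.8% of Purkinje cell-like and 3.85% and 3.95% of microglia-like nuclei, with 1 control microglia-like nucleus left out as too shallow. Cntn6 was highest in Purkinje cell-like nuclei (407 and 448 CPM), whose interval overlapped that of CN-like nuclei (364 CPM) in control and not in the cKO-labelled library (288 CPM), with GN-like nuclei next (191 and 155 CPM).

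**Figure D1:**
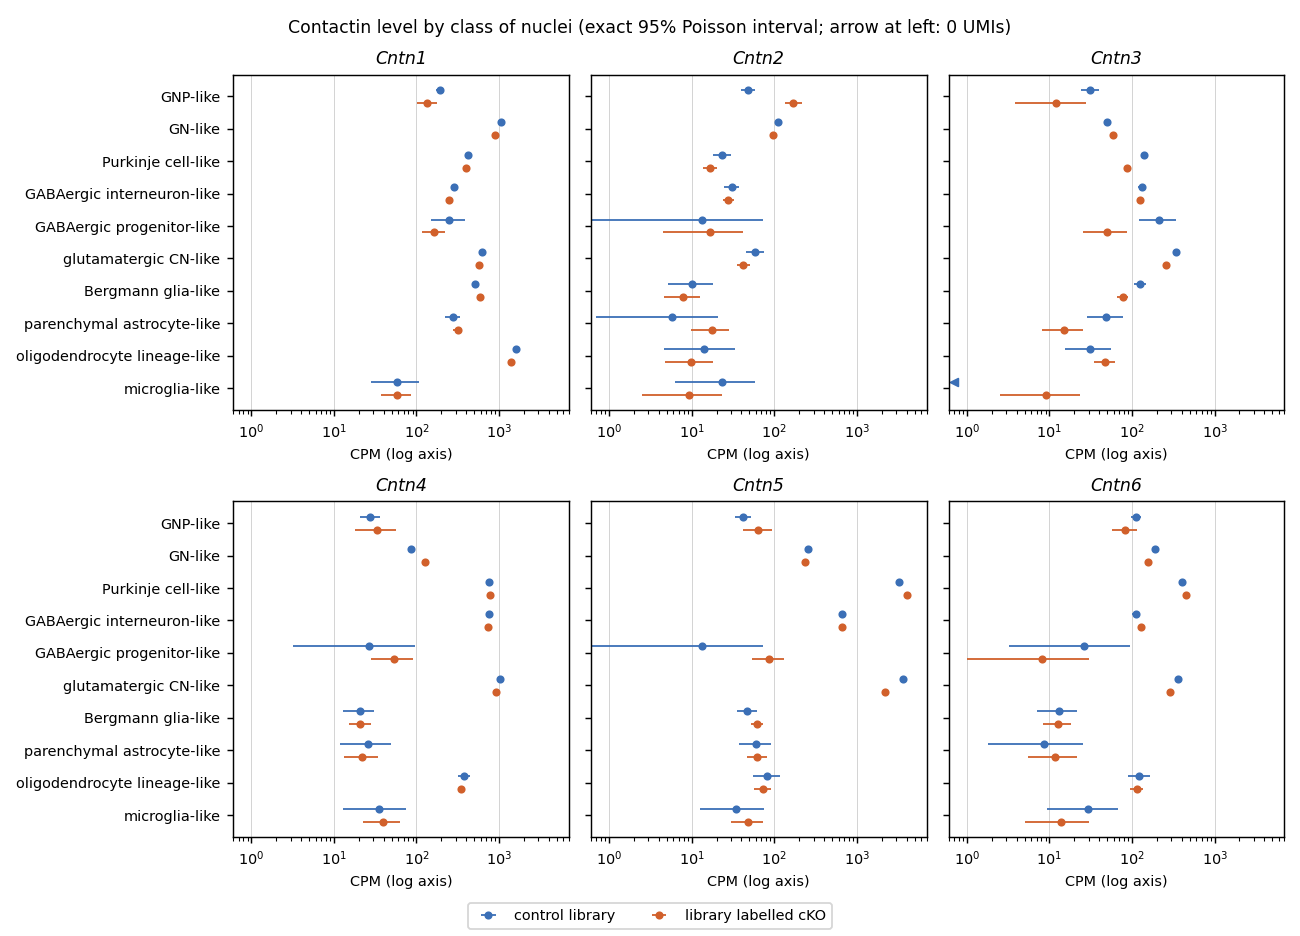
Level of each contactin in 10 classes of nuclei, in CPM on a log axis, with blue points for the control library and orange points for the cKO-labelled library, and bars for the exact 95% Poisson interval. Cntn1 peaked in oligodendrocyte lineage-like nuclei (1604 and 1411 CPM), and of these classes Cntn3, Cntn4, Cntn5 and Cntn6 peaked in CN-like or Purkinje cell-like nuclei.

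The likeness of these patterns was described by Pearson's r of log2(CPM + 5) over the 10 classes, which share a library and differ in depth. Among members, Cntn4 and Cntn5 (r = 0.88 in control and 0.85 in the cKO-labelled library), Cntn4 and Cntn6 (0.80 and 0.85) and Cntn5 and Cntn6 (0.80 and 0.81) were most alike. With the other members in control, r of Cntn2 ran from 0.043 (Cntn3) to 0.72 (Cntn6). Among 15011 genes, the 3 most like each member in control were found, each given with r in control and in the cKO-labelled library. For Cntn1 they were Lsamp (0.90 and 0.87), Gm4409 (0.89 and 0.57) and Spock2 (0.89 and 0.76). For Cntn2 they were Rasgef1b (0.95 and 0.77), Tmem91 (0.95 and 0.70) and Mob1b (0.94 and 0.71). For Cntn3, Gm15558 (0.94 and 0.56) and Dgat1 (0.94 and 0.46) were among them. For Cntn4 they were Gramd2 (0.98 and 0.89), Gm17188 (0.97 and 0.75) and 4930527B05Rik (0.97 and 0.92). For Cntn5 they were Trpc7 (0.98 and 0.98), Klhl1 (0.97 and 0.93) and Mkln1os (0.97 and 0.62). For Cntn6 they were Ralyl (0.98 and 0.90), Lrfn5 (0.97 and 0.91) and Rbm8a2 (0.96 and 0.97). Values were high in control by choice, and the second value of a pair did not enter the choice. Lsamp and Lrfn5 encode neuronal adhesion molecules, Trpc7 a cation channel, and Klhl1 is known from Purkinje cells.

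A class value was taken as different where it passed 1.5-fold with at least 50 UMIs over both libraries, and 7 of the 42 class values with enough UMIs did so, while the share of all genes past that fold ran from 5.24% to 25.4% over the classes. In GN-like nuclei none of the 6 members passed, where 6.95% of genes did. The values there were lower for Cntn1 (1044 to 882 CPM, ratio 0.845, 0.818 to 0.872) and Cntn6 (191 to 155 CPM, ratio 0.812, 0.752 to 0.876) and higher for Cntn4 (85.0 to 126 CPM, ratio 1.48, 1.34 to 1.64), with Cntn2, Cntn3 and Cntn5 at 0.877, 1.17 and 0.919. Nor did any member pass in GABAergic interneuron-like nuclei (6 tested, 5.24% of genes), oligodendrocyte lineage-like nuclei (5 tested, 15.7%) or parenchymal astrocyte-like nuclei (2 tested, 12.9%). In oligodendrocyte lineage-like nuclei Cntn1 stood lower (ratio 0.879, 0.797 to 0.971). Over the whole granule lineage, GNP-like and GN-like nuclei together, Cntn4 did pass, going from 72.7 to 121 CPM (ratio 1.67, 1.52 to 1.84), which 1 of 6 members did beside 14.8% of genes. Under the marker gate the ratio was 1.43, below 1.5-fold. GNP-like nuclei, where Cntn4 is low, made up a smaller part of the lineage in the cKO-labelled library, but GN-like nuclei alone had a ratio of 1.48. The part of lineage makeup in the Cntn4 value was not tested.

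GNP-like nuclei held 3 of the 7 values past 1.5-fold. Cntn2 stood at 48.1 CPM in control (99 UMIs) and 171 CPM in the cKO-labelled library (72 UMIs), a ratio of 3.55 (2.58 to 4.86). The Poisson intervals did not overlap, and 48 of 7916 genes tested had a ratio at least as high. The control level is not told from the microglia-like background, as given above. A Cntn2 UMI was found in 13.8% of control and 39.5% of the other nuclei at median depths of 3716 and 3474 UMIs, and in 5.24% (3.48 to 7.54) and 12.3% (6.88 to 19.7) after thinning to 1000 UMIs. In microglia-like nuclei the thinned shares were 3.85% and 1.97%. The ratio was smaller when nuclei were gated on marker genes instead of clustered (2.08) and in nuclei with Y-linked but not Xist UMIs (1.99). Cntn3 went the other way, with 64 UMIs in control and 5 in the cKO-labelled library (31.1 and 11.9 CPM, ratio 0.381, 0.120 to 0.937), but under the marker gate its ratio was 1.04. Cntn5 passed at 41.8 and 64.1 CPM with an interval that includes 1 (ratio 1.53, 0.956 to 2.39). Cntn1 and Cntn6 stood at ratios of 0.710 and 0.740. With 114 nuclei in the cKO-labelled library, 25.4% of genes passed the same fold in this class, so that 3 of 6 members is a count to be read against a high background.

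Outside the granule lineage, Cntn3 stood lower in the cKO-labelled library in Purkinje cell-like nuclei (141 to 87.6 CPM, ratio 0.622, 0.546 to 0.708), where 1 of 6 members passed beside 6.98% of genes. Under the marker gate the ratio was 0.721, which does not pass. Few nuclei held most of its UMIs: the top 5% of nuclei gave 65.3% in control and 68.2% in the cKO-labelled library. The difference lay in cluster 6 (ratio 0.620, 0.542 to 0.711) and not in cluster 9 (ratio 1.02, 0.635 to 1.67), where the gene was near background in both libraries. The difference between the clusters was not tested. In Bergmann glia-like nuclei Cntn3 stood at 126 and 77.0 CPM (ratio 0.610, 0.483 to 0.771), 1 of 4 members tested beside 9.2% of genes. After thinning to 1000 UMIs that ratio was 0.921. Cntn5 in Purkinje cell-like nuclei stood higher, at 3269 and 4087 CPM (ratio 1.25, 1.22 to 1.28), without passing 1.5-fold. In GABAergic progenitor-like nuclei, of which control held 20, Cntn1 passed on 19 and 40 UMIs with an interval that includes 1 (0.657, 0.372 to 1.20), beside 22.9% of genes.

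Cntn5 in CN-like nuclei was lower in the cKO-labelled library, at 3650.4 CPM in control and 2188 CPM (ratio 0.599, 0.576 to 0.624), which was 1 of 6 members beside 10.8% of genes. A few control nuclei weighed on this value: the nucleus with the most Cntn5 held 606 UMIs in control and 199 in the cKO-labelled library, and the top 5% of nuclei held 39.9% and 22.5% of its UMIs. Without those top 5% the ratio was 0.766. The share of nuclei with a Cntn5 UMI after thinning hardly differed, at 70.8% (61.1 to 79.2) and 72.3% (67.3 to 77.0). The class was made of clusters that went opposite ways: cluster 14 stood at 3996 and 2239 CPM, and the smaller cluster 22, led by Zfhx3, at 1418 and 1796 CPM.

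**Figure D2:**
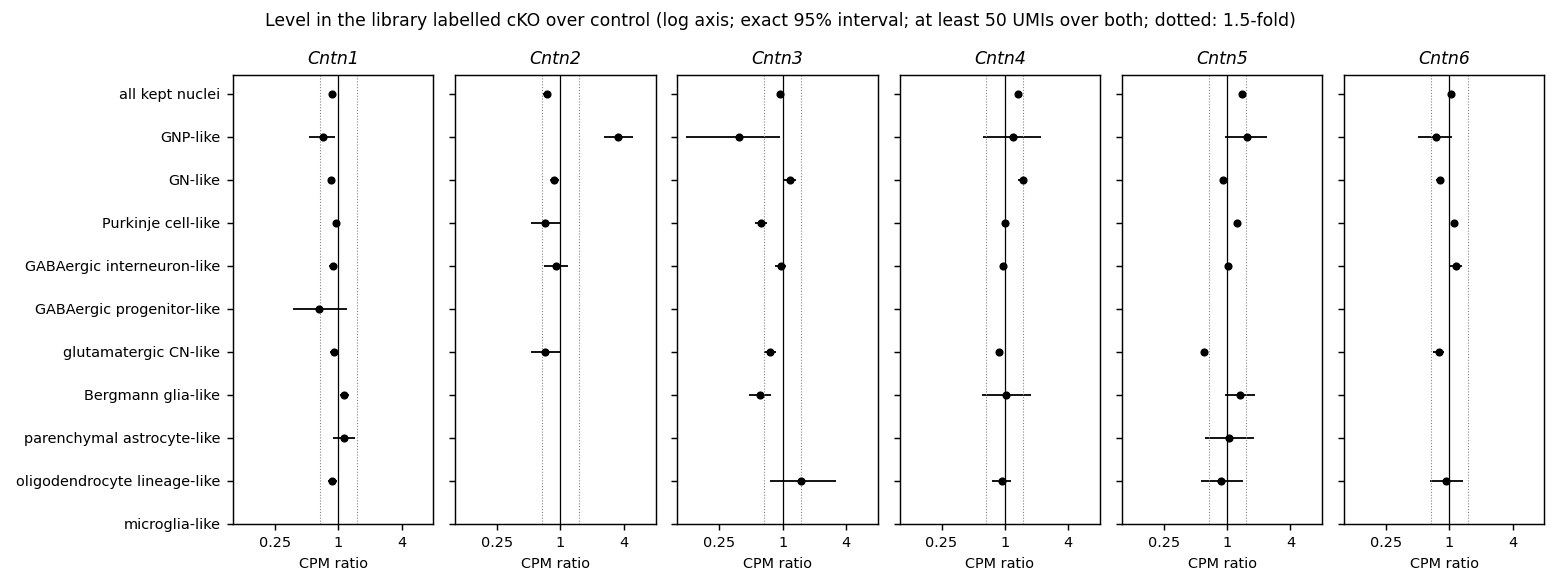
Ratio of each contactin's CPM in the cKO-labelled library over control, for all kept nuclei and for each class with at least 50 UMIs over both libraries, on a log axis, with exact 95% intervals and dotted lines at 1.5-fold in each direction. Cntn2 in GNP-like nuclei lies farthest to the right, at 3.55, and most other points lie between the dotted lines.

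The granule lineage was divided into 12 states, ordered by the log2 ratio of a list of later genes over a list of progenitor genes. States 1 and 2 held most GNP-like nuclei. State 1 was led by Gli2, Top2a and Mki67 and held 277 control nuclei and 81 of the cKO-labelled library, all of them GNP-like. State 2, led by Gli2 and Ntn1, held 248 and 50, of which 91.5% and 66.0% were GNP-like. State 3, with Igfbpl1 and Dcc among its leading genes, held 203 and 193 nuclei, and state 4, led by Kcnip4, held 109 and 48. States 5 to 12 lay close together in the index, between 4.16 and 4.97, and their order carries little.

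Cntn2 was highest in states 3 and 4 in both libraries. In control it stood at 51.1 CPM in state 1, 51.3 in state 2, 327 in state 3 and 315 in state 4, then at 237 in state 6 and at 29.5 to 63.7 in the other later states. In the cKO-labelled library the values were 158, 224, 486 and 442 CPM in states 1 to 4, and 199 CPM in state 6. States 1 to 4 thus all stood above control, with ratios of 3.10 (2.11 to 4.54), 4.37 (2.64 to 7.14), 1.49 (1.25 to 1.77) and 1.40 (1.02 to 1.91), of which the first and second passed 1.5-fold. In state 1, 22.9% of genes passed the same fold, and in state 2 32.2%. The makeup of state 2 differed between the libraries: beside its smaller GNP-like share in the cKO-labelled library, Mki67 stood there at 106 and 216 CPM, and their part in the Cntn2 ratio was not tested. Cycling genes stood close to each other in state 1 of both libraries, with Mki67 at 551 and 624 CPM and Top2a at 877 and 807 CPM. Gli2, a Hedgehog pathway gene of progenitors, stood at 692 and 621 CPM, while the later list stood at 2543 and 3347 CPM. The part of that shift in the Cntn2 value was not tested. Of the later states, state 11 passed downward, on 32 and 21 UMIs (ratio 0.592, 0.324 to 1.06). In nuclei with Y-linked but not Xist UMIs the state 1 ratio was 1.44.

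Cntn1 was higher in the later states. It went from 218 and 126 CPM in states 1 and 2 of control, through 327 in state 3, to 1348 in state 4 and 898 to 1325 in states 5 to 12. In the cKO-labelled library it was lower in each of the 12 states, with intervals below 1 in 9, and reached only 776 CPM in state 4 (ratio 0.576, 0.466 to 0.706), where 19.1% of genes passed 1.5-fold. State 2 also passed, on 6 UMIs in the cKO-labelled library (ratio 0.356, 0.128 to 0.802).

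Cntn6 was spread over the lineage and was highest in state 12, led by Grm8, at 626 and 535 CPM. Below it came state 11 with 295 and 212 CPM. Cntn6 was lower in the cKO-labelled library in 8 of the 10 states with enough UMIs, and passed 1.5-fold in state 6 (171 to 73.0 CPM, ratio 0.427, 0.320 to 0.565, beside 11.3% of genes), state 10 (228 to 114 CPM, ratio 0.502, 0.388 to 0.647, beside 11.0%), state 8 (ratio 0.665, 0.510 to 0.865, beside 15.6%) and state 3 (126 to 71.6 CPM, ratio 0.569, 0.387 to 0.824, beside 12.8%). State 9 went the other way, from 65.0 to 138 CPM (ratio 2.13, 1.48 to 3.14, beside 14.6%). In control Reln stood at 4666, 4074 and 3937 CPM in states 6, 10 and 3, but at 1782 CPM in state 8 and 1464 CPM in state 9. Its relation to the direction of Cntn6 was not tested.

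Cntn4 was low in states 1 to 4, between 16.1 and 29.3 CPM in control, and highest in state 12, at 288 and 371 CPM. It stood higher in the cKO-labelled library in 6 of the 7 states with enough UMIs and passed 1.5-fold in state 9 (52.7 to 145 CPM, ratio 2.74, 1.85 to 4.20), state 11 (1.66, beside 10.7% of genes) and state 5 (1.54, beside 11.9%). Cntn3 had its peak in state 9, where the opposite-strand gene 4930587E11Rik was a leading gene, at 255 and 204 CPM. It passed in state 5, upward (44.0 to 85.7 CPM, ratio 1.95, 1.29 to 3.01), and in state 8, downward (85.4 to 34.8 CPM, ratio 0.408, 0.255 to 0.636).

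**Figure D3:**
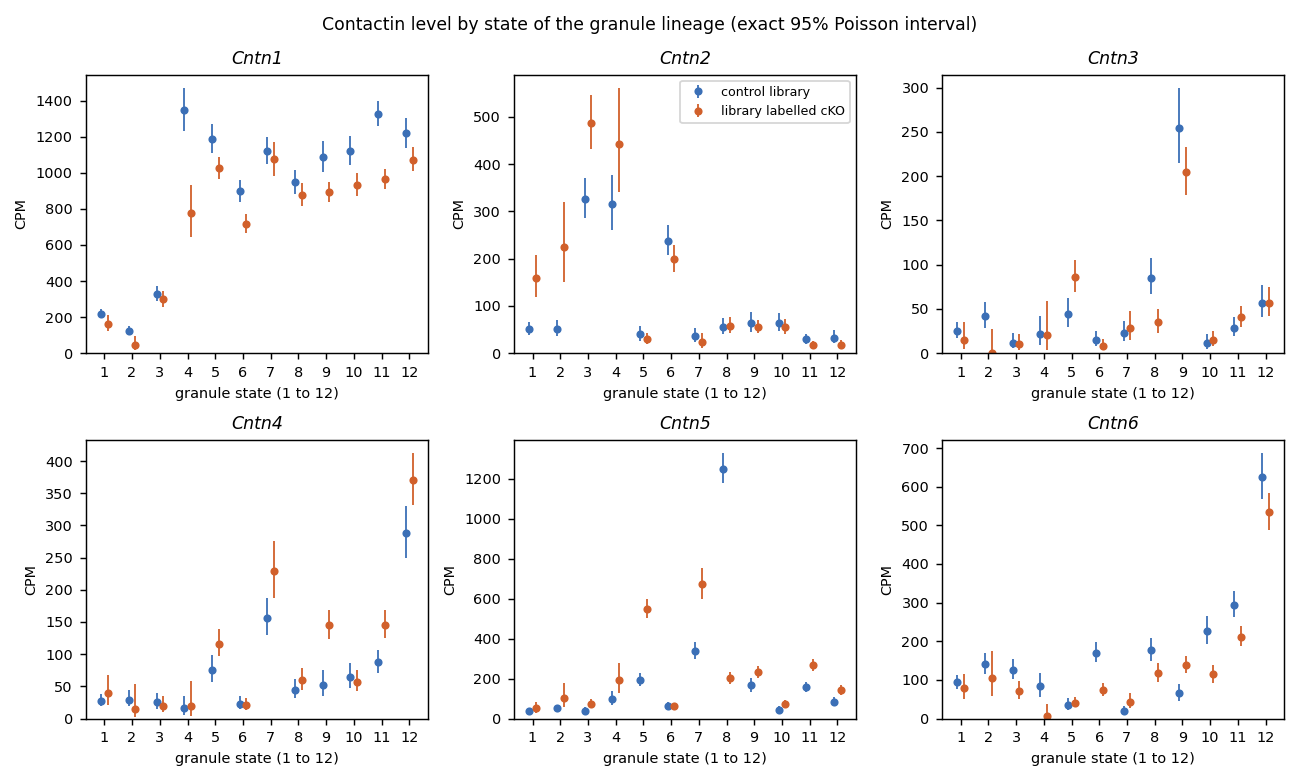
Level of each contactin in the 12 states of the granule lineage, in CPM, with blue points for control, orange points for the cKO-labelled library and bars for the exact 95% Poisson interval. Cntn2 is high in states 3, 4 and 6, Cntn1 from state 4 onward, and Cntn5 stands out in state 8 in control (1251 CPM) but not in the cKO-labelled library (200.5 CPM).

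Among values with at least 50 UMIs, the difference farthest from 1 of any member was that of Cntn5 in state 8. This state held 146 control nuclei and 208 of the cKO-labelled library, and Cntn5 had 1040 UMIs (1251 CPM, 95% interval 1176 to 1329) in control and 167 UMIs (200.5 CPM, 171 to 233) in the other. The ratio was 0.160 (0.135 to 0.189), and 12 of 5388 genes tested had one as low, beside 15.6% past 1.5-fold in either direction. The difference was carried by many nuclei: 41.1% of control nuclei and 4.81% of the others held at least 5 Cntn5 UMIs, and 30.1% and 0% at least 10. Of 208 nuclei, 0 with at least 10 UMIs allows a share of up to 1.44%, by a 1-sided approximate limit of 3 counts and not the exact interval. Depth was also higher in control (median 5214.5 against 3874 UMIs), but after thinning to 1000 UMIs the share with a Cntn5 UMI was 45.2% (37.0 to 53.6) and 8.65% (5.21 to 13.3). The summed Purkinje cell markers stood at 855 and 1379 CPM in this state and the CN markers at 154 and 131 CPM, and their part in the Cntn5 value was not tested. The ratio stayed between 0.157 and 0.187 in nuclei split by Xist and Y-linked UMIs.

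Cntnap5c, Ntf3, Fgf5 and Cdh9 were among the leading genes of the whole of state 8 beside Cntn5, and Ntf3 encodes neurotrophin-3. When the libraries were merged without integration, the granule lineage gave 14 subclusters, of which that with the most Cntn5 in control held 152 control nuclei (7.48% of the lineage) and 19 of the cKO-labelled library (0.945%). Hmga2, Ntf3 and Cntn5 were among its leading genes, and 112 of its control nuclei were in state 8. Within it Cntn5 stood at 1192 and 288 CPM. This subcluster was chosen for its Cntn5 in control, which favours that direction, and clusters merged without integration may split by library, so these values are a description. Fewer such nuclei and less Cntn5 in each cannot be told apart.

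In most other states Cntn5 stood higher in the cKO-labelled library. Of the 12 states, 9 passed 1.5-fold, all of them upward except state 8. In the states that passed, from 9.37% (state 12) to 32.2% (state 2) of genes passed the same fold. The levels of state 3 (40.2 and 71.6 CPM) and state 10 (42.4 and 70.6 CPM) lay inside the microglia-like intervals of Cntn5 (12.7 to 75.6 CPM in control, 29.9 to 73.8 CPM in the other), and state 10 went the other way after thinning (ratio 0.764). State 5 had the largest value, going from 194 to 549 CPM (ratio 2.83, 2.35 to 3.43), and 14 of 5597 genes tested were as high there. State 7 went from 338 to 673 CPM (ratio 1.99, 1.69 to 2.35, beside 12.9% of genes) and state 12 from 84.1 to 142 CPM (ratio 1.69, 1.23 to 2.34, beside 9.37%). Over all GN-like nuclei these opposite directions left a ratio of 0.919. The summed Purkinje cell markers were also higher in the cKO-labelled library in states 2 (2274 and 3075 CPM), 3 (1930.2 and 2807), 7 (809 and 899), 10 (618 and 1017), 11 (505 and 766) and 12 (580.0 and 808), and lower in states 4 (3361 and 2905) and 5 (2263 and 1915). Their part in the Cntn5 values was not tested. In state 5 the ratio was 2.07 in nuclei with an Xist UMI and 5.70 in those with Y-linked but not Xist UMIs.

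**Figure D4:**
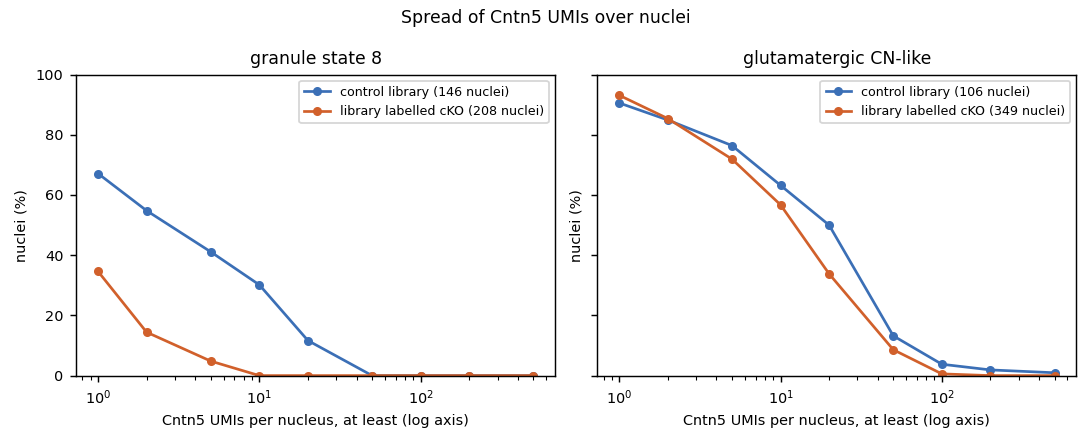
Share of nuclei, in percent, that hold at least a given number of Cntn5 UMIs (log axis), in granule state 8 and in CN-like nuclei, with blue for control and orange for the cKO-labelled library. In state 8, 41.1% of control nuclei and 4.81% of the others hold at least 5 UMIs, whereas in CN-like nuclei they start together (90.6% and 93.1% with at least 1 UMI) and part at the upper end.

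Projection neurons showed the most members per nucleus. Thinned to 1000 UMIs, a GN-like nucleus showed 1.07 members on average in control and 1.00 in the cKO-labelled library, a GNP-like nucleus 0.398 and 0.465, a CN-like nucleus 2.08 and 1.92, and a microglia-like nucleus 0.173 and 0.197.

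Known partners of contactins were described as a list of 28 genes. In the granule lineage 26 had enough UMIs, and 4 stood at least 1.5-fold higher and 1 lower in the cKO-labelled library, beside 4.08% of genes higher and 10.7% lower. The higher ones were the Caspr genes Cntnap5a (45.0 to 82.1 CPM, ratio 1.82, 1.61 to 2.06) and Cntnap5b (40.8 to 88.8 CPM, ratio 2.17, 1.92 to 2.46), the L1 family gene Chl1 (ratio 1.51, 1.44 to 1.58) and Tnc, which encodes the matrix ligand tenascin-C (ratio 2.30, 1.91 to 2.77). The lower one was the potassium channel gene Kcna2, on 40 and 14 UMIs (ratio 0.386, 0.194 to 0.724). In GN-like nuclei alone 3 of 25 stood higher, again Cntnap5a, Cntnap5b and Tnc, and none lower, beside 2.97% and 3.98% of genes. The median log2 ratio of the list in the lineage was 0.03, beside -0.08 over all genes tested. Tnc was highest in Bergmann glia-like nuclei, at 3023 and 2405 CPM, and the share of its granule UMIs that came from free RNA was not tested.

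In GNP-like nuclei 17 partners had enough UMIs, of which 4 stood higher and 2 lower, beside 9.22% of genes higher and 16.2% lower. Cntnap2, a Caspr protein and partner of Cntn2 on axons, went from 421 to 1019 CPM (ratio 2.42, 2.15 to 2.72), beside Cntn2 itself. The adhesion molecule gene Ncam1 (ratio 2.18, 1.89 to 2.51), the phosphatase gene Ptprz1 (ratio 1.80, 1.18 to 2.70) and the latrophilin gene Adgrl1 (ratio 1.58, 1.20 to 2.06) were also higher. Ptprg, a receptor tyrosine phosphatase that binds several contactins, was highest in GNP-like nuclei and went from 1164 to 634 CPM (ratio 0.545, 0.478 to 0.618). Cntnap1, the Caspr partner of Cntn1, had 68 and 2 UMIs there, of 2056079 and 421164 UMIs in the class. These raw counts are not on 1 scale, and the second is very small. These partners of GNP-like nuclei were named after their values were seen. Over the classes described, the Caspr gene Cntnap5a was highest in Purkinje cell-like nuclei (1748 CPM in control), Chl1 in GABAergic interneuron-like nuclei (1044 CPM), Ptprz1 in parenchymal astrocyte-like nuclei (2702 CPM) and App in GABAergic interneuron-like nuclei (1041 CPM). In oligodendrocyte lineage-like nuclei, where Cntn1 was highest, the matrix ligand Tnr stood at 972 CPM in control and 2076 CPM in the cKO-labelled library. Control held 76 nuclei of this class. Of 16 partners tested there, 3 stood at least 1.5-fold higher and 0 lower, beside 8.72% and 6.99% of genes. A relation of Tnr to Cntn1 was not tested.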

How the data were processed

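The deposited files held raw UMI counts per gene and barcode, which the authors made with Cell Ranger 7.0.1 on GRCm38 (mm10). Whether intronic reads were counted is not given in the sources used here. The authors' ambient RNA correction was not applied. Members and gene lists were chosen with earlier results of these data known. Nuclei over 25% mitochondrial UMIs were left out (1 control, 5 in the cKO-labelled library), as were doublets scored by Scrublet in scanpy 1.11.5 (189 and 386, at 0.8% per 1000 barcodes). Libraries were integrated in Seurat 5.3.0 on R 4.3.3 with 3000 features and 30 dimensions and clustered on 20 dimensions at resolution 0.8. Clusters were named from marker lists, and 1 further class, which entered no class comparison, and 1 of the genes most like Cntn3 are not reported here. Counts were summed per class and library in Python 3.11.15 with scipy 1.17.1. CPM was given with exact Poisson, shares with Clopper-Pearson and ratios with conditional binomial 95% intervals. A value was called at 1.5-fold or more with at least 50 UMIs. Named genes were the members, the partners called in the granule lineage or in GN-like nuclei, the highest class of partner groups, and the 3 genes most like each member, and the partners of GNP-like nuclei were named after their values were seen. Interval coverage was checked only on simulated Poisson counts, which the intervals assume. The clumping of UMIs in few nuclei was not simulated, so the check does not bear on it. Alternatives were planned except the removal of the 5% of nuclei with most UMIs of a gene, which was chosen after seeing the data.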

Additional observations from a re-analysis of the deposited data

Results flagged for a closer look

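For every member, the classes went opposite ways, with an interval below 1 in a class and above 1 in another. Cntn1 stood at 0.845 in GN-like and 1.14 in Bergmann glia-like nuclei. Cntn4 stood at 0.884 in CN-like and 1.48 in GN-like nuclei, and Cntn6 at 0.792 in CN-like and 1.10 in Purkinje cell-like nuclei. The CN-like value of Cntn4 and both values of Cntn6 crossed 1 under alternatives given below. The other 3 members had such a value past 1.5-fold. Cntn2 stood at a ratio of 3.55 in GNP-like and 0.712 in Purkinje cell-like nuclei, where its levels (23.4 and 16.7 CPM) lay inside the microglia-like intervals, whose upper limits were 59.3 CPM in control and 23.5 CPM in the other library. Cntn3 stood at 0.381 in GNP-like and 1.17 in GN-like nuclei, but the first was 1.04 under the marker gate and the second 0.973 after thinning to 1000 UMIs. Cntn5 stood at 0.599 in CN-like and 1.25 in Purkinje cell-like nuclei. With 1 library per group these differences were not tested, and any difference between the pools, sex balance included, cannot be told apart from genotype.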

How the results depend on the processing

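No paired analysis was possible because there is 1 library per group. Under the alternatives, 657 values stayed within their counting interval, 129 moved and 17 changed side of 1, and the causes were not tested. Over all nuclei, thinning to 1000 UMIs gave ratios of 0.826 for Cntn2, 1.01 for Cntn3, 1.39 for Cntn4, 1.51 for Cntn5 and 0.929 for Cntn6. The mean over nuclei gave 0.952 for Cntn1, 1.51 for Cntn4, 1.57 for Cntn5 and 0.991 for Cntn6. Nuclei with Y-linked but not Xist UMIs gave 0.825 for Cntn1, 0.872 for Cntn3, 1.20 for Cntn4 and 1.33 for Cntn5. Without doublet removal Cntn4 stood at 1.37 and Cntn5 at 1.41, and median-of-ratios scaling gave 1.42 for Cntn5. The marker gate gave 1.43 for Cntn4 in the lineage, 2.08 and 1.04 for Cntn2 and Cntn3 in GNP-like, 0.721 for Cntn3 in Purkinje cell-like, 0.472 for Cntn3 in Bergmann glia-like and 0.538 for Cntn5 in CN-like nuclei. Y-linked nuclei gave 1.99 for Cntn2 in GNP-like, 0.521 for Cntn3 in Purkinje cell-like and 0.750 for Cntn5 in CN-like nuclei, and Xist nuclei 0.518 for the last. Without the 5% of nuclei highest in the gene, the ratio was 5.25 for Cntn2 and 0 for Cntn3 in GNP-like nuclei, 0.766 for Cntn5 in CN-like nuclei and 0.127 in state 8. The 0 for Cntn3 was fixed in advance and checks nothing, because those nuclei held 100% of its UMIs in the cKO-labelled library. For Cntn5 in CN-like nuclei, no doublet removal gave 0.628, thinning 0.762 and the mean over nuclei 0.672. Thinning gave 0.921 for Cntn3 in Bergmann glia-like nuclei and 0.104 for Cntn5 in state 8. At 2-fold, 2 class values passed against 7 at 1.5-fold.

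Smaller ratios crossed 1 as follows. Thinning gave 1.00 for Cntn2 and 0.973 for Cntn3 in GN-like nuclei, 1.32 for Cntn2 in CN-like nuclei and 0.764 for Cntn5 in state 10. The gate gave 1.12 for Cntn5 in GN-like, 0.966 for Cntn6 in interneuron-like, 1.00 for Cntn6 in CN-like and 1.06 for Cntn1 in oligodendrocyte lineage-like nuclei, and the mean over nuclei 1.00 for Cntn5 in GN-like nuclei. Y-linked nuclei gave 1.02 for Cntn6 in the lineage, 0.890 for Cntn6 in Purkinje cell-like, 1.15 for Cntn4 in CN-like and 1.10 for Cntn1 in oligodendrocyte lineage-like nuclei and 0.917 for Cntn5 in state 3. Depth limits the GNP-like values of the cKO-labelled library, which rest on 114 nuclei.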

Other observations

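Unnamed cluster 19 held 54 control nuclei and 99 nuclei of the cKO-labelled library, with Cntn5, Cntn4 and Cntnap5a among its leading genes. Cntn5 stood there at 4851 CPM in control and 5757 CPM in the cKO-labelled library, above its level in every class described.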
